A study of Mus musculus with 9 samples.

Results

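The 10 genes described here are the AP-1 genes of the FOS family (Fos, Fosb, Fosl1 and Fosl2) and of the JUN family (Jun, Junb and Jund), together with the immediate early genes Egr1, Ier2 and Ier3. They were found by symbol among the 53801 genes of a count table, each symbol matched 1 gene, and all 10 passed the filter on low counts that 22452 genes passed. RNA-seq was performed in 9 libraries of cultured mouse spermatogonial stem cells (SSCs), 3 in each of 3 groups. By the study's account the cells came from Prmt5 flox/flox; Rosa26-CreERT2 mice, in which 4-hydroxytamoxifen (4OHT) activates a Cre recombinase expressed from a locus active in most cell types, and Prmt5 encodes an arginine methyltransferase. The cells of every group received 4OHT at 1 µM, so that no group with intact Prmt5 was compared here. The 4OHT group had no construct, the label MU was read as knockout cells with overexpressed PRMT5 (E444Q), a mutant made to test the enzymatic activity, and the label OE was read as knockout cells with overexpressed PRMT5 (WT). The age and strain of the mice behind this line, and whether the libraries of a group came from separate cultures, were not given in the sources used here, so the p-values measure only the spread between these libraries. The study kept cultured SSCs on mouse embryonic fibroblast feeder cells in other experiments, and how feeder cells were handled before this RNA was taken was not given in the sources used here.

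FOS and JUN proteins are basic leucine zipper (bZIP) transcription factors that bind DNA as pairs, called AP-1, in which JUN proteins pair with each other or with a FOS protein, whereas FOS proteins need a JUN partner. Many of these genes are immediate early genes: growth factors and stress switch on their transcription within minutes through the ERK, JNK and p38 kinases and the factors SRF, ELK and CREB, without new protein synthesis, and their mRNAs decay fast. Cultured SSCs are grown with growth factors that feed the same kinases, and dissociation of cells is also known to induce these genes.

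Promoter sequences are shown for Fos, Fosb, Jun and Junb, because in these 4 the window held a motif related to the sites that CREB and JUN proteins bind. The RefSeq promoter table of GRCm38.p6 had an entry for 7 of the 10 genes, and none for Fosl1, Ier2 and Egr1. The 250 bases before the annotated start are printed 5′ to 3′ on the strand of the gene, for Fos chr12:85473640-85473889 (+), for Fosb chr7:19310046-19310295 (-), for Jun chr4:95052223-95052472 (-) and for Junb chr8:84978749-84978998 (-). Capitals mark TGACG, TGACATCA and TATAAA.
Fos: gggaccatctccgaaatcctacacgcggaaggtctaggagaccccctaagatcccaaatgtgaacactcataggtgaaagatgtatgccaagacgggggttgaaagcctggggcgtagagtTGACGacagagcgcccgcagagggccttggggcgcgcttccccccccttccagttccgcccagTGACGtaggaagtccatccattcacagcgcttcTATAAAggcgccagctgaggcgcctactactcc
Fosb: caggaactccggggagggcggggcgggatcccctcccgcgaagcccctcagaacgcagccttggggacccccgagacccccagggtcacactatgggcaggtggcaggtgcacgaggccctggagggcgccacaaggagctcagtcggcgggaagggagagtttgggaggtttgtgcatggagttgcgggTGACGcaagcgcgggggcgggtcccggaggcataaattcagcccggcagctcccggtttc
Jun: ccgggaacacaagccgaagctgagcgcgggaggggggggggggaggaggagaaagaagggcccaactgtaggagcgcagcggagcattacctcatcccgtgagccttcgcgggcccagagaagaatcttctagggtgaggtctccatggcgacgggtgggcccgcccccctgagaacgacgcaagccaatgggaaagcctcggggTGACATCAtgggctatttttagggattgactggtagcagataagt
Junb: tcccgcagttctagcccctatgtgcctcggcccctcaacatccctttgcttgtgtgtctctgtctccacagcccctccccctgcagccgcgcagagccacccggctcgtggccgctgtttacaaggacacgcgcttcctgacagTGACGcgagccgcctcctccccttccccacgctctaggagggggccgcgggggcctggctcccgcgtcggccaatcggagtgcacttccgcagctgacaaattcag
Positions are counted from the RefSeq start, with the first transcribed base as 1. TGACG, the core of the CREB site and contained in the full site TGACGTCA, lay in Fos from -129 to -125 and from -66 to -62, in Fosb from -60 to -56 and in Junb from -106 to -102. Jun instead held TGACATCA, a site known to bind JUN-ATF2 pairs, from -45 to -38. TATAAA lay from -33 to -28 in Fos and directly after the printed run, from 1 to 6, in Junb. In the annotation used for the counts, Junb on the minus strand starts at 84978718, downstream of the RefSeq start. The positions given for Junb would differ if counted from there. Searched on both strands of the whole 300-base windows, TGACG was found in 3 of the 7 genes and in 20.8% of 32851 promoters, TGACATCA in 1 of 7 and 3.62%, and TATAAA in 2 of 7 and 13.6%. The letters TGACG and TGACATCA were chosen after the promoters had been read. The canonical AP-1 site TGACTCA was in 0 of the 7 windows and in 5.2% of all promoters, the full CREB site TGACGTCA in 0 and 1.79%, the CArG box of SRF in 0 and 1.63%, and the EGR1 site GCGTGGGCG in 0 and 0.612%. Sites outside these windows were not searched, so the genes may hold such sites further from the start. The Jund window lay upstream of the gene start in the annotation used for the counts, 8:70697489 to 70697788 against a gene start at 70698949. The Fosl2 window, 5:32136222 to 32136521 (+), lay inside the gene, which starts at 32135801 in that annotation. The counts out of 7 thus include windows away from the gene starts of that annotation.

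The libraries held between 78751996 and 365719548 counts, and the members between 720 and 132204 counts each. Levels are given below as CPM, counts scaled to the size of the library, after TMM normalization, as mean ± SD of 3 libraries, and fold changes and adjusted p-values come from 1 edgeR model over the 9 libraries. Prmt5 was at 30.32 ± 1.92 CPM (SD, n = 3) in the 4OHT group, 146.1 ± 0.957 with PRMT5 (E444Q) and 1076 ± 7.61 in the PRMT5 (WT) group. Prmt5 RNA was thus 7.36 times less abundant with the mutant than with the wild-type construct. These groups differ in the amount of this RNA as well as in its sequence. For the protein, the study reported from western blots that either construct restored PRMT5. One library, PRMT5 (WT) replicate 1, stood apart from the other 8 on the second principal component of all tested genes, at -105.7 against -7.805 to 29.54, and values without it are given where they change a call for 1 of the 10 genes, the calls of the lists and markers below not having been refitted without it. Replicates scattered by a median coefficient of variation, over genes of 100 CPM or more, of 6.56% in the 4OHT group, 2.02% with PRMT5 (E444Q) and 2.51% with PRMT5 (WT).

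Compared with the 4OHT group, 8 of the 10 genes were lower with PRMT5 (E444Q) and 9 of 10 with PRMT5 (WT), at an adjusted p under 0.05 (edgeR's quasi-likelihood test, Benjamini-Hochberg adjustment over 22452 genes). No member rose, with 0 of 10 higher by edgeR, by DESeq2 and at an unadjusted p under 0.05. In all tested genes 56.0% were called in the first comparison, 26.5% as lower and 29.5% as higher, and 57.8% in the second, 27.9% as lower and 29.9% as higher. The median log2 fold change of the 10 genes was -0.69 with PRMT5 (E444Q), against 0.043 over all tested genes, and -0.94 with PRMT5 (WT), against 0.018. The called genes were the ones whose 3 construct libraries all lay below the 3 libraries of the 4OHT group, as 30.1% of all tested genes did in each comparison. Both comparisons use the same 3 libraries of the 4OHT group, so they are not independent. In bulk RNA, fewer cells of a type and less RNA of a gene per cell cannot be told apart.

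**Figure D1:**
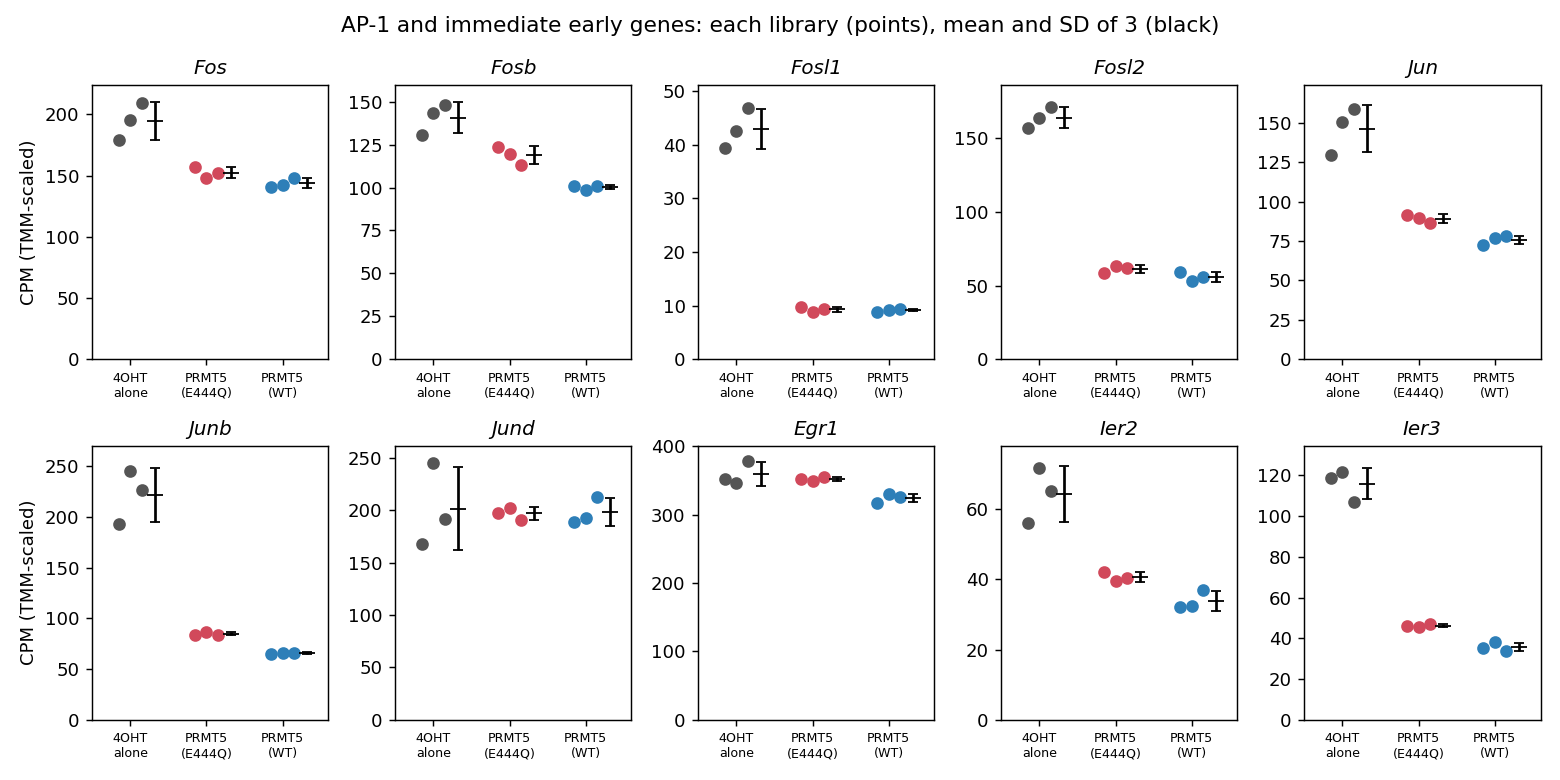
Level of each of the 10 genes in CPM after TMM scaling (y axis, starting at 0) in the 3 libraries of each group, with 1 coloured point per library and the mean and SD of 3 libraries in black. The 4OHT libraries lie above all construct libraries for 8 genes, by the widest factor for Fosl1 at 42.97 against 9.286 and 9.124 CPM, while the groups overlap for Jund.

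Within the FOS family the inducible genes Fos and Fosb changed far less than Fosl1 and Fosl2. Fos, the prototype immediate early gene (chromosome 12, 85473890 to 85477273), was at 178.9, 195.5 and 209.6 CPM in the 4OHT group, at 157.3, 148.0 and 152.0 CPM with PRMT5 (E444Q) and at 141.1, 142.1 and 148.3 CPM with PRMT5 (WT). All 6 construct libraries lay below the lowest 4OHT library, and the construct groups touched at 148.0 and 148.3 CPM. Fos fell by 0.35 on the log2 scale with PRMT5 (E444Q) (SE 0.0573, edgeR adjusted p = 0.000117) and fell by 0.44 with PRMT5 (WT) (SE 0.0576, edgeR adjusted p = 1.58e-05). Fosb, the close relative that also gives the stable truncated form ΔFosB by splicing (chromosome 7, 19302696 to 19310051), was at 130.6, 143.6 and 148.0 CPM in the 4OHT group, 123.9, 119.6 and 113.3 CPM with PRMT5 (E444Q), and 101.2, 98.85 and 100.7 CPM with PRMT5 (WT). Its 3 groups were fully separated, with the mutant construct in the middle. It fell by 0.24 with PRMT5 (E444Q) (SE 0.0547, edgeR adjusted p = 0.00171) and fell by 0.49 with PRMT5 (WT) (SE 0.0551, edgeR adjusted p = 3.37e-06).

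Fosl1 and Fosl2 encode FRA1 and FRA2, FOS proteins that lack the strong transactivation domain of FOS and are known for longer-lasting expression in growing mesenchymal and epithelial cells. Fosl1 (chromosome 19, 5447547 to 5455946) was at 39.44, 42.61 and 46.88 CPM in the 4OHT group, 9.715, 8.842 and 9.301 CPM with PRMT5 (E444Q), and 8.861, 9.202 and 9.309 CPM with PRMT5 (WT). The construct libraries lay far below the lowest 4OHT library and mixed with each other. Fosl1 fell by 2.21 on the log2 scale with PRMT5 (E444Q) (SE 0.0784, edgeR adjusted p = 4.48e-11), a level 4.63 times below that of the 4OHT group, and fell by 2.24 with PRMT5 (WT) (SE 0.0798, edgeR adjusted p = 3.25e-11). Fosl2 (chromosome 5, 32135801 to 32157842) was at 157.3, 163.6 and 171.6 CPM, against 58.59, 63.6 and 61.79 CPM with PRMT5 (E444Q) and 59.26, 52.9 and 55.58 CPM with PRMT5 (WT). Here too the 4OHT libraries stood clear of the other 6, whose groups overlapped. It fell by 1.42 (SE 0.0568, edgeR adjusted p = 1.25e-10) and fell by 1.55 (SE 0.0574, edgeR adjusted p = 4.31e-11) with the mutant and the wild-type construct. The exons of Fosl1 share 1163 bases, 57.2% of their length, with Ccdc85b on the other strand, and since it was not stated whether counting used the strand, reads of these genes may be mixed. Ccdc85b itself had a mean of 28.88 CPM in the 4OHT group, 18.56 with PRMT5 (E444Q) and 17.46 in the PRMT5 (WT) group.

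In the JUN family, Jun and Junb fell while Jund was not called in either comparison. Jun (chromosome 4, 95049034 to 95052222), the strongest activator of the family and a substrate of JNK, was at 129.6, 150.4 and 158.8 CPM in the 4OHT group, 91.72, 89.65 and 86.11 CPM with PRMT5 (E444Q), and 72.71, 76.63 and 77.84 CPM with PRMT5 (WT). The 3 groups formed 3 separate ranges. Jun fell by 0.71 with PRMT5 (E444Q) (SE 0.0669, edgeR adjusted p = 5.8e-07) and fell by 0.95 with PRMT5 (WT) (SE 0.0675, edgeR adjusted p = 3.06e-08). Junb (chromosome 8, 84974484 to 84978718), which activates more weakly and can oppose JUN, was at 192.9, 245.5 and 226.1 CPM, 84.03, 86.8 and 83.81 CPM, and 64.68, 66.11 and 66.03 CPM in the same order of groups. Its construct groups were tight and did not overlap, and its 4OHT libraries were the more scattered. Junb fell by 1.38 (SE 0.071, edgeR adjusted p = 1.36e-09) with PRMT5 (E444Q) and fell by 1.76 (SE 0.0722, edgeR adjusted p = 1.23e-10) with PRMT5 (WT). Its exons overlap those of Prdx2 on the other strand by 173 bases, 7.52% of their length, and Prdx2 was at a mean of 269 CPM in the 4OHT group and of 150.6 and 137.5 CPM with the constructs.

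Jund (chromosome 8, 70698949 to 70700616), known as the member least dependent on stimulation, was at 168.3, 245.2 and 191.8 CPM in the 4OHT group, 197.8, 202.7 and 190.8 CPM with PRMT5 (E444Q), and 188.7, 193.1 and 213.2 CPM with PRMT5 (WT). The 4OHT libraries spanned all values of both construct groups. Its log2 difference from the 4OHT group was -0.03 with PRMT5 (E444Q) (95% interval -0.25 to 0.19, edgeR adjusted p = 0.809) and -0.02 with PRMT5 (WT) (95% interval -0.25 to 0.2, edgeR adjusted p = 0.858), so changes within those intervals could not be seen. Without 4OHT replicate 2, its highest library, these differences were 0.14 and 0.15.

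**Figure D2:**
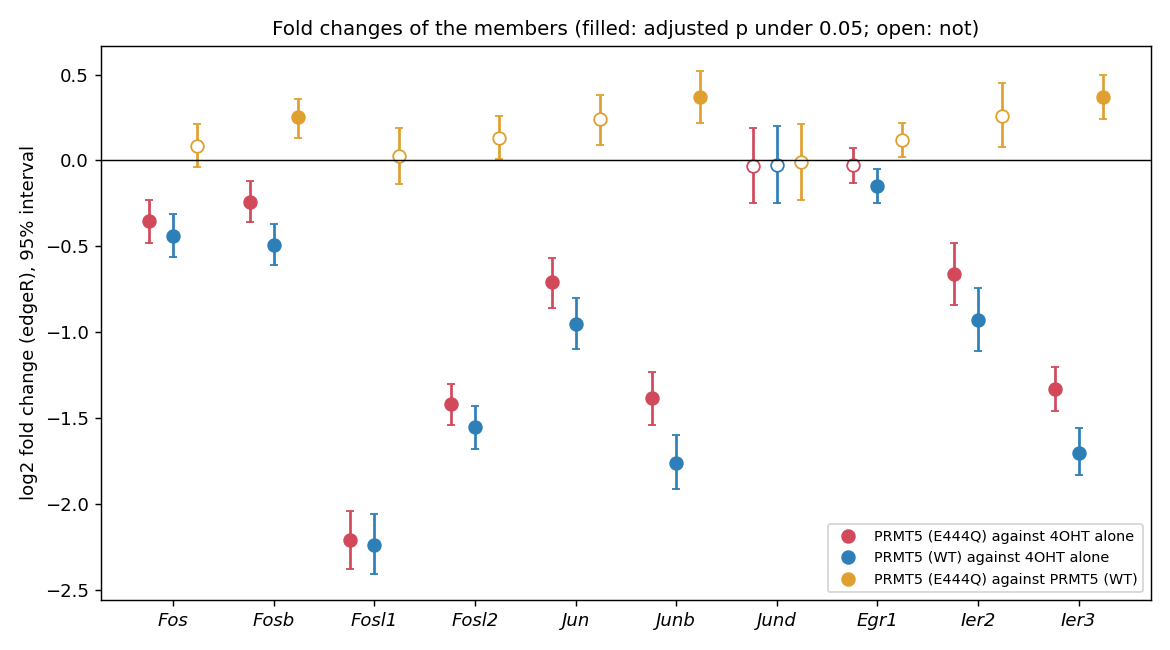
Log2 fold changes of the 10 genes (y axis) with 95% intervals derived from edgeR's test. They are given for PRMT5 (E444Q) and PRMT5 (WT) each against the 4OHT group and against each other. Points are filled where the adjusted p is under 0.05 and open elsewhere. Fosl1 is the lowest at -2.21 and -2.24 against the 4OHT group, and Jund lies near 0 in all 3 comparisons.

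Among the remaining genes, Ier2 and Ier3 fell with both constructs, and Egr1 was close to its 4OHT level. Ier3 (chromosome 17, 35821684 to 35822923), an inhibitor of apoptosis that is induced by growth factors and NF-κB, was at 118.8, 121.8 and 107.2 CPM in the 4OHT group, 45.85, 45.67 and 46.89 CPM with PRMT5 (E444Q), and 35.43, 38.03 and 33.79 CPM with PRMT5 (WT). No library of any group reached the range of another. It fell by 1.33 (SE 0.0609, edgeR adjusted p = 4.45e-10) with the mutant and fell by 1.70 (SE 0.0621, edgeR adjusted p = 4.11e-11) with the wild-type construct. Ier2 (chromosome 8, 84661331 to 84662852), an intronless gene for a small nuclear protein, was at 55.96, 71.77 and 65.22 CPM, 42.12, 39.56 and 40.23 CPM, and 32.02, 32.29 and 37.02 CPM, again in 3 separate ranges. It fell by 0.66 (SE 0.0843, edgeR adjusted p = 1.2e-05) and fell by 0.93 (SE 0.0855, edgeR adjusted p = 4.38e-07).

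Egr1, a zinc finger factor that is a standard readout of ERK and SRF activity, had the highest CPM of the 10 genes in every group. It was at 351.8, 345.5 and 378.6 CPM in the 4OHT group, 351.8, 349.2 and 354.7 CPM with PRMT5 (E444Q), and 317.5, 330.1 and 325.2 CPM with PRMT5 (WT). The mutant construct libraries lay inside the range of the 4OHT group, and the wild-type ones below both. Its difference with PRMT5 (E444Q) was -0.03 on the log2 scale (95% interval -0.13 to 0.07, edgeR adjusted p = 0.648). With PRMT5 (WT) it fell by 0.15 (SE 0.0462, edgeR adjusted p = 0.0152), a call that was lost without PRMT5 (WT) replicate 1 (-0.12, edgeR adjusted p = 0.0696) and with no filter on low counts (-0.12, edgeR adjusted p = 0.0758).

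The contrast that the constructs were made for, PRMT5 (E444Q) against PRMT5 (WT), showed small differences. Fosb, Junb and Ier3 were higher with PRMT5 (E444Q), no member was lower (0 of 10 by edgeR, by DESeq2 and at an unadjusted p under 0.05), and 3.17% of all tested genes were called, 2.12% as higher and 1.06% as lower. The median log2 difference of the 10 genes was 0.19, against 0.008 over all tested genes. Junb was 29.4% higher (log2 difference 0.37, SE 0.0703, edgeR adjusted p = 0.00854), Ier3 29.1% higher (0.37, SE 0.0607, edgeR adjusted p = 0.00323) and Fosb 18.6% higher (0.25, SE 0.0548, edgeR adjusted p = 0.0247). Ier3 was called under each setting tried. Fosb was lost when any of 5 libraries was left out, PRMT5 (E444Q) replicate 1 (edgeR adjusted p = 0.157) or 2 (0.114) or PRMT5 (WT) replicate 1 (0.077), 2 (0.102) or 3 (0.092), while its log2 difference stayed between 0.22 and 0.25. Junb was lost without PRMT5 (E444Q) replicate 2 (edgeR adjusted p = 0.0543) and without PRMT5 (WT) replicate 1 (0.0563), while its log2 difference stayed at 0.36 in both cases.

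The other 7 genes did not pass in this contrast, and the 95% intervals given here are not adjusted for the number of genes tested. Ier2 was at 0.26 on the log2 scale (95% interval 0.08 to 0.45, edgeR adjusted p = 0.145), Jun at 0.24 (0.09 to 0.38, 0.0905), Fosl2 at 0.13 (0.01 to 0.26, 0.33) and Egr1 at 0.12 (0.02 to 0.22, 0.282). Ier2, Jun and Egr1 also had all 3 mutant libraries above all 3 wild-type ones, which makes 6 such genes with the 3 called, against 13.0% of all tested genes. Fos was at 0.08 (95% interval -0.04 to 0.21), Fosl1 at 0.02 (-0.14 to 0.19) and Jund at -0.01 (-0.23 to 0.21), so differences between the constructs of up to those bounds could not be seen. Jun was called when the 6 construct libraries were fitted alone (edgeR adjusted p = 0.00134), with no filter on low counts (edgeR adjusted p = 0.0414), by DESeq2 (adjusted p = 0.0398), and without 4OHT replicate 1 (edgeR adjusted p = 0.00903) or 3 (0.0203). Ier2 and Egr1 were called in the fit of the 6 construct libraries alone (edgeR adjusted p = 0.0148 for each), Ier2 also without 4OHT replicate 1 (edgeR adjusted p = 0.0418) and Egr1 without 4OHT replicate 3 (edgeR adjusted p = 0.0415). The fit of the 6 construct libraries alone called 1565 of 23304 tested genes, against 712 of 22452 in the main fit. Across the 3 groups the means of 9 genes followed the order 4OHT, PRMT5 (E444Q), PRMT5 (WT) from high to low, the exception being Jund. This order was seen in 27.0% of all tested genes, and in 61.9% of those whose means were lower with both constructs. The individual libraries of Fosb, Jun, Junb, Ier2 and Ier3 were fully separated in that order, as for 6.42% of all tested genes. Prmt5 mRNA rose in the same order of groups, and its part in these differences was not tested.

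Levels of different genes were compared per kilobase of exon, taking the union of all annotated exons. This union was longer than the transcript with the longest coding sequence for Fosl2 (9680 against 6537 bases) and Fosb (6243 against 3782). It was also longer for Junb (2301 against 1809), while Jund had 1668 by either length. The order of the genes and the family shares below depend on this choice, and other lengths were not tried. By this length Jund had the highest mean level in each group, with 121 ± 23.6, 118 ± 3.61 and 119 ± 7.82 CPM per kb (SD, n = 3) in the 4OHT, PRMT5 (E444Q) and PRMT5 (WT) groups. In the 4OHT group it was followed by Ier3 (103 ± 6.81), Junb (96.3 ± 11.6), Fos (82.8 ± 6.52) and Egr1 (80.0 ± 3.92), and each of these neighbours overlapped with the next over the libraries. Then came Jun (45.9 ± 4.72) and Ier2 (42.3 ± 5.22), which overlapped, and Fosb (22.5 ± 1.45) and Fosl1 (21.1 ± 1.84), which did too. Fosl2 (17.0 ± 0.738) was last by this length. In both construct groups the order was Jund, Egr1, Fos, Ier3, Junb, Jun, Ier2, Fosb, Fosl2 and Fosl1, and there only the neighbours Jun and Ier2 overlapped. Ier3 thus went from 103 CPM per kb to 40.8 ± 0.583 with PRMT5 (E444Q) and 31.6 ± 1.89 in the PRMT5 (WT) group, and from above Egr1 to below it.

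As AP-1 works in pairs, the make-up of each family was also calculated. The summed FOS family was at 143 ± 10.5 CPM per kb (SD, n = 3) in the 4OHT group, 94.8 ± 2.42 with PRMT5 (E444Q) and 87.5 ± 1.79 in the PRMT5 (WT) group. Fos made up 57.7 ± 0.331% of it in the 4OHT group, 68.4 ± 0.671% with PRMT5 (E444Q) and 69.9 ± 0.646% in the PRMT5 (WT) group, while Fosl1 made up 14.7 ± 0.253%, 4.82 ± 0.123% and 5.13 ± 0.114%. Fosl2 went from 11.8 ± 0.392% to 6.69 ± 0.441% and 6.61 ± 0.395%, so the share of both FRA genes was smaller with the constructs. The JUN family summed to 263 ± 37.9, 183 ± 5.29 and 171 ± 8.88 CPM per kb. Junb held 36.7 ± 1.01% of it in the 4OHT group, 20.1 ± 0.36% with PRMT5 (E444Q) and 16.7 ± 0.714% in the PRMT5 (WT) group, and Jund held 45.8 ± 2.68%, 64.6 ± 0.351% and 69.5 ± 1.06%. No library of the 4OHT group reached the construct libraries in any of these shares. The shares are of mRNA and rest on the same exon lengths, and the amounts of protein were not measured here.

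**Figure D3:**
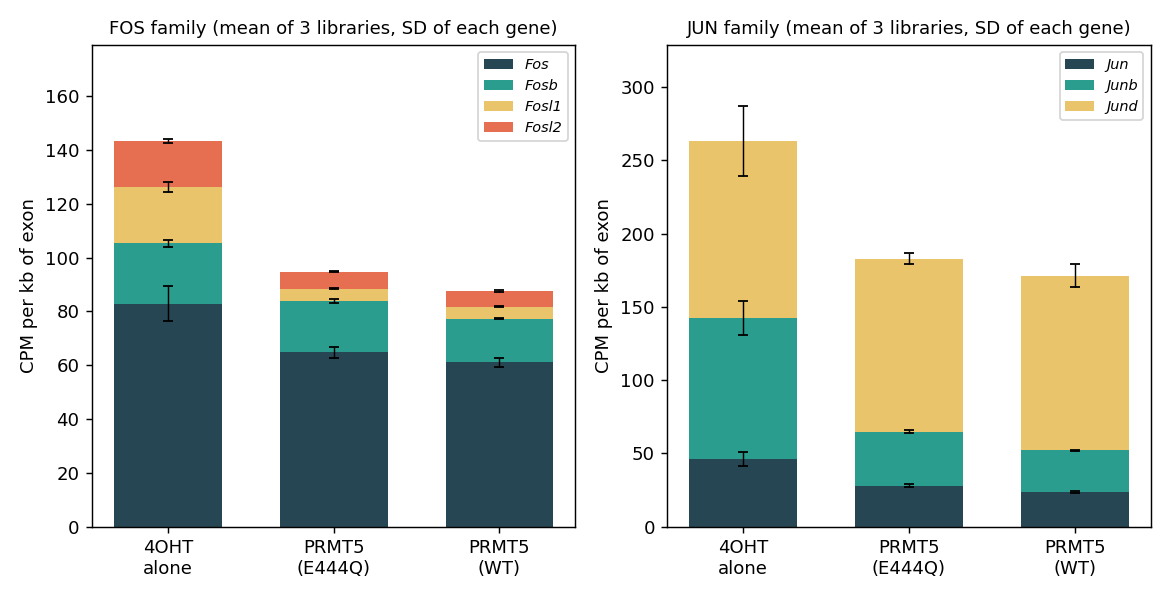
Stacked mean level per kilobase of exon (CPM per kb, y axis starting at 0) of the 4 FOS family genes and the 3 JUN family genes in each group, each segment being the mean of 3 libraries with its SD. Fosl1 shrinks from 14.7% of the FOS family to 4.82% and 5.13%, and Jund grows from 45.8% of the JUN family to 64.6% and 69.5% at 121, 118 and 119 CPM per kb.

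Other genes of the same programme were described as lists, with the median of all tested genes given above as the background. Of all tested genes, 26.5% fell and 29.5% rose with PRMT5 (E444Q), and 27.9% fell and 29.9% rose with PRMT5 (WT). Between the constructs, 2.12% were higher and 1.06% lower with PRMT5 (E444Q). Of 32 other immediate early genes, 25 fell and 4 rose with PRMT5 (E444Q) (median -0.77), and 26 fell and 4 rose with PRMT5 (WT) (median -0.99). Ptgs2, the inducible cyclooxygenase, went from 194.9 ± 6.52 CPM in the 4OHT group to 43.35 ± 1.32 and 30.57 ± 1.43 CPM (SD, n = 3) with the mutant and the wild-type construct. The matricellular genes Cyr61 and Ctgf, known targets of SRF and YAP, went from 590 ± 35.2 to 149.8 ± 3.0 and 105.9 ± 2.71 CPM and from 301.3 ± 7.76 to 87.83 ± 2.14 and 55.01 ± 3.41 CPM. Egr3, a relative of Egr1, fell by 2.13 on the log2 scale with PRMT5 (E444Q) (SE 0.15, edgeR adjusted p = 3.83e-08), in contrast to Egr1. The 4 genes that rose were Egr4, Atf3, Arc and Sgk1, with log2 fold changes of 0.31, 0.56, 0.36 and 0.76 with PRMT5 (E444Q) and 0.42, 0.76, 0.4 and 0.8 in the PRMT5 (WT) group, and they were named after their values were seen. Between the constructs 7 of the 32 were higher and 1 was lower with PRMT5 (E444Q) (median 0.07), among them Ctgf at a log2 difference of 0.67 (SE 0.052, edgeR adjusted p = 9.83e-06) and Nr4a2, an orphan nuclear receptor, at 0.60 (SE 0.12, edgeR adjusted p = 0.0118). The lower one was Trib1, a pseudokinase, at -0.55 (SE 0.07, edgeR adjusted p = 0.000406).

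The bZIP genes whose proteins can pair with AP-1 members or compete for their sites moved less. Of 15 tested, 7 fell and 2 rose with PRMT5 (E444Q) (median -0.18), 6 fell and 2 rose with PRMT5 (WT) (median -0.09), and their median between the constructs was 0.01. In either direction, 56.0% and 57.8% of all tested genes were called in the comparisons with the 4OHT group. Jdp2, a repressor that pairs with JUN, went from 30.26 ± 2.4 CPM to 10.37 ± 1.17 and 8.306 ± 0.965 CPM (SD, n = 3). Maf had a log2 fold change of -1.47 with PRMT5 (E444Q), and of -1.62 with PRMT5 (WT), both called. The 2 genes that rose were Atf2, the partner of JUN on TGACATCA, at 0.36 and 0.39, and Batf3 at 0.85 and 0.66, named after their values were seen.

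Of 23 kinases and factors upstream of the immediate early genes, 12 fell and 5 rose with PRMT5 (E444Q) (median -0.16), and 12 fell and 6 rose with PRMT5 (WT) (median -0.2). Elk3, an ETS factor that works with SRF, went from 147.4 ± 6.77 CPM to 34.09 ± 1.45 and 27.69 ± 0.516 CPM (SD, n = 3), and it was the 1 gene of this list called between the constructs, at 0.30 (SE 0.053, edgeR adjusted p = 0.00545). Mef2a, a MADS box factor that acts on the Jun promoter, had log2 fold changes of -0.87 and -0.98, both called. The JNK genes moved in opposite directions, as Mapk8 rose by 0.55 and 0.46 while Mapk9 was lower at -0.46 and -0.54 with the mutant and the wild-type construct, all called. The 5 genes that rose with PRMT5 (E444Q) were Creb1, Mapk8, Mapk14, Rps6ka1 and Braf.

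Genes known as AP-1 targets were lower by the widest margin of these lists. Of 20, 17 fell with PRMT5 (E444Q) (median -1.81) and 18 in the PRMT5 (WT) group (median -1.96). Mmp3, a secreted metalloproteinase, went from 488.5 ± 22.0 CPM to 60.47 ± 1.96 and 45.59 ± 2.08 CPM (SD, n = 3), and its relative Mmp10 from 13.37 ± 2.12 to 0.2886 ± 0.0921 and 0.2537 ± 0.101 CPM. Lif, a cytokine, went from 66.58 ± 3.31 to 6.657 ± 0.528 and 5.076 ± 0.859 CPM. Between the constructs 6 were higher and 1 was lower with PRMT5 (E444Q) (median 0.24). The chemokine gene Ccl2 was higher by 0.50 (SE 0.069, edgeR adjusted p = 0.000798) and the protease inhibitor gene Timp1 by 0.46 (SE 0.058, edgeR adjusted p = 0.000401), whereas Plaur, the urokinase receptor gene, was lower at -0.46 (SE 0.11, edgeR adjusted p = 0.0409). Heat shock genes, known to respond to stress of another kind, moved the other way: 7 of 11 rose and 2 fell with PRMT5 (E444Q) (median 0.36), and 8 rose and 2 fell with PRMT5 (WT) (median 0.37), the 2 being Hspb1 and Bag3.

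**Figure D4:**
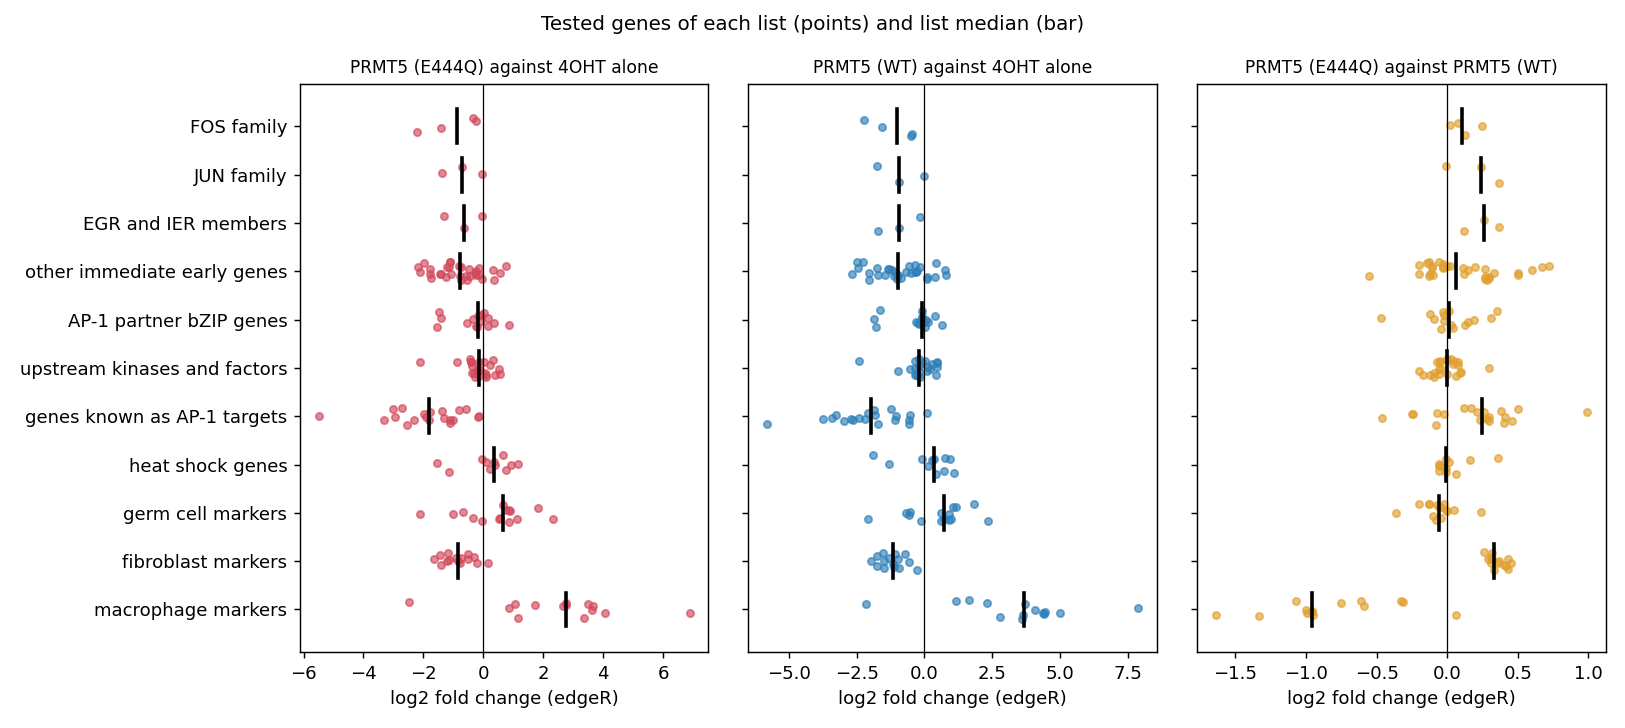
Log2 fold changes from edgeR (x axis) of the tested genes of each list (points) with the list median (bar), in 1 panel per comparison. AP-1 target genes have medians of -1.81 and -1.96 against the 4OHT group and the fibroblast markers -0.85 and -1.16, while macrophage markers have medians of 2.75 and 3.68.

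Markers of several cell types moved with the groups. Of 15 fibroblast markers, led in abundance by Fn1 and Col1a2, 14 fell and 1, Dcn, rose with PRMT5 (E444Q) (median -0.85), and 15 fell with PRMT5 (WT) (median -1.16). Their summed level was 10440 to 12630 CPM in the 4OHT group, 5768 to 5852 with PRMT5 (E444Q) and 4534 to 4610 with PRMT5 (WT), the same order of groups as for 9 of the 10 genes, and 13 of 15 were higher in the mutant than in the wild-type construct group (median 0.33). The log2 fold changes of the 15 markers ranged from -1.66 to 0.17 with PRMT5 (E444Q) and from -1.98 to -0.26 with PRMT5 (WT), and Fosl1 lay below every marker in both comparisons. The other 9 genes lay within that range with PRMT5 (E444Q), and 7 did with PRMT5 (WT), where Egr1 and Jund lay above it. With PRMT5 (E444Q) the upper end of the range was set by Dcn alone. The next marker was Lum at -0.2, and Egr1 and Jund, each at -0.03, lay between Lum and Dcn. The share of all tested genes within these ranges was not calculated. In the contrast of the constructs the markers ranged from 0.26 to 0.45, a range that held Junb, Ier2 and Ier3 while the other 7 genes lay below it. None of the 15 markers was under 1 CPM in any group, and the part of fibroblasts in these results was not tested.

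Germ cell markers, led by Dazl and Uchl1, summed to 2436 to 2507 CPM in the 4OHT group, 3727 to 3835 with PRMT5 (E444Q) and 3996 to 4045 with PRMT5 (WT). RNA of germ cells was thus present in every library. Of these 15 markers 10 rose and 4 fell with each construct (medians 0.65 and 0.72), the 4 being Zbtb16, Gfra1, Nanos2 and Nanos3. The 10 were Ddx4, Dazl, Dnd1, Sall4, Uchl1, Mael, Tdrd1, Dmrt1, Kit and Stra8, and Id4 was not called with either construct. Of 14 macrophage markers, led by Lyz2 and Chil3, 13 rose and 1, C1qa, fell with each construct (medians 2.75 and 3.68), and their sum was 188.2 to 202 CPM, 2076 to 2151 CPM and 3925 to 4397 CPM. Between the constructs 10 macrophage markers were lower with PRMT5 (E444Q) (median -0.95), and the median of the germ cell markers was -0.06. Sertoli cell markers summed to 131.9 to 161.6, 55.98 to 58.25 and 47.54 to 52.08 CPM, and of 8 markers Gata4, Wt1 and Rhox5 rose and Sox9, Inha and Inhbb fell with both constructs, as did Cldn11 with the mutant and Amh with the wild-type one. Amh and Rhox5 were at very low levels. Their means were 0.1379, 0.08911 and 0.01063 CPM for Amh and 0.311, 0.691 and 0.7898 CPM for Rhox5, in the 4OHT, PRMT5 (E444Q) and PRMT5 (WT) groups. Leydig cell markers summed to at most 7.117 CPM in any library, 2 of 6, Hsd3b1 and Lhcgr, were at 0 in every library, and 1 of the 2 tested, Cyp11a1, rose with each construct. Its levels were very low, with means of 0 CPM in the 4OHT group, 0.3024 with PRMT5 (E444Q) and 0.1523 with PRMT5 (WT). The part of these cells in the levels of the 10 genes was not tested.

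The ranks of the libraries within each group were counted over the 10 genes, and the same counts over all tested genes are not given. In the 4OHT group replicate 1 was the lowest library for 8 of the 10 genes, and replicate 3 was the highest for 6 and replicate 2 for the other 4. With PRMT5 (E444Q) the lowest library was replicate 2 for 5 genes, replicate 3 for 4 and replicate 1 for 1. The spread was widest for Jund, at 0.54 on the log2 scale between its lowest and highest 4OHT library, followed by Ier2 at 0.36 and Junb at 0.35, and narrowest for Egr1 and Fosl2 at 0.13. With PRMT5 (E444Q) the widest spread was 0.14, for Fosl1, and with PRMT5 (WT) 0.21, for Ier2. PRMT5 (WT) replicate 1, the library that stood apart, was the lowest of its group for 7 of the 10 genes.

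As a description over the 9 libraries, the genes whose log2 CPM ran most alike with Fos among 15417 tested genes of at least 1 CPM were Abcc3 (Pearson r 0.996), Havcr1 (0.996), Smyd2 (0.993), Gm8615 (0.992) and Mob3c (0.99). Those most alike with Jun were Col1a1, Aebp1, Klf4 and Irx1 (each 0.996) and Eno1b (0.995). Col1a1, a collagen gene, is among the fibroblast markers, and Klf4 among the other immediate early genes. All of these genes had a higher mean in the 4OHT group than with either construct, and this difference between groups is shared by the 9 points.

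Features of structure that played no part in the choice of the genes were also counted. Jun, Junb, Jund and Ier2 had a single exon in the transcript with the longest coding sequence, 4 of 10, as did 3.67% of 16668 tested protein-coding genes. Messages of immediate early genes often carry AU-rich elements in the 3′ untranslated region, built on ATTTA. Of the 10 genes, 4 held at least 3 copies of ATTTA there, against 31.7% of tested coding genes, with 8 copies in Fosl2, 5 in Ier3 and 4 each in Fos and Jun. The longer element TTATTTATT was present in Fos and Fosl2, 2 of 10 against 6.77%.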

How the data were processed

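Total RNA of 9 libraries (3 per group) was made into mRNA libraries and sequenced in paired-end mode. According to the methods and the submitters' processing notes, adapters and poor bases were removed by the authors (BBmap, Trimmomatic 0.39), HISAT2 2.2.1 aligned the reads (GRCm38) and StringTie 2.2.1 gave gene values. What the authors deposited are whole-number, unnormalized counts. How StringTie's coverage became whole counts, and whether strand was used, was not given in the sources used here. Counts of 4 were 1.35 to 1.84 times as frequent as the mean of 3 and 5, so a read pair may stand for several counts, and dividing the counts by 4 was tried.

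Genes were filtered with filterByExpr (count minimum 10, total minimum 15), scaled by TMM and tested with edgeR 4.0.16 (R 4.3.3), by the quasi-likelihood test with group as the only term over all 9 libraries and Benjamini-Hochberg adjustment at 0.05. CPM per kb used the union of exons in GENCODE vM21, which held 53620 of the 53801 identifiers. Other tables were made with Python 3.11.15 and pandas 2.3.3. Alternatives were DESeq2 1.42.0 and its size factors, no filter, only the groups compared, a replicate block and leaving out each library. No pair of replicates was identical or within sampling noise (dispersion ratios 3.14 to 16.5).

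The members, the lists and the tests were chosen with earlier results of these data known. Besides the 10 members and Prmt5, the text names, from each of the 4 lists of related genes and each comparison, the 3 called genes with the largest log2 fold change at a mean of at least 1 CPM, the 5 genes most alike with Fos and with Jun, and the 2 most abundant markers of each cell type. Some genes that this rule would name are not reported here. Other names were added after their values were seen, where a count of 5 or fewer genes called for them or where an overlapping gene was described. The germ cell markers were all named, also after their values were seen. The fold changes come from a fit with a prior count, and the ethanol-treated control of the study was not analysed here.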

Additional observations from a re-analysis of the deposited data

How the results depend on the processing

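Of 450 recomputed fold changes of members, 421 kept their direction and their side of the threshold, 9 passed only under the alternative, 9 passed only in the original fit, and 11 turned sign. The same 8 members were called with PRMT5 (E444Q) against the 4OHT group in every setting, and 8 to 9 with PRMT5 (WT). Between the constructs 3 members and 712 of 22452 tested genes were called, and 66.7% of these genes were higher with PRMT5 (E444Q). DESeq2 called 1112 genes. With only the groups compared, 1565 of 23304 tested genes (52.5% higher) and 6 members (Egr1, Ier2 and Jun added) were called. When 1 library was left out, 400 to 1099 genes and 1 to 5 members were called. Ier3 was the 1 member called without PRMT5 (E444Q) replicate 2 and without PRMT5 (WT) replicate 1. The sign turned only for differences that were not called. With no filter on low counts Jund was at 0.028 between the constructs and at 0.027 with PRMT5 (E444Q) against the 4OHT group, and Egr1 at 0.035 in the latter. With 1 library left out, Jund ranged from -0.045 to 0.048 between the constructs, from -0.16 to 0.14 with PRMT5 (E444Q) and from -0.15 to 0.15 with PRMT5 (WT) against the 4OHT group, Fosl1 between the constructs from -0.0092 to 0.060, and Egr1 with PRMT5 (E444Q) from -0.054 to 0.0077. The cause was not tested.

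Same-numbered libraries correlated in their deviations at -0.0289 to 0.154, and not every pair was over 0.1, so the numbers were not taken as pairing. In 13 of 18 cases a library matched best with its own number, a hint of pairing from the data that the labels do not give. With the replicate block 674 genes were called between the constructs, 12443 with PRMT5 (E444Q) and 12807 in the PRMT5 (WT) group against the 4OHT group, and the members called stayed at 3, 8 and 9.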
